A study of Mus musculus with 16 samples.

Results

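The subunits of the mitochondrial respiratory chain and ATP synthase were followed gene by gene in hearts of wild-type (WT) and R502W mice. Members were the rows of the deposited table whose names mark them as subunits: Nduf names followed by a, b, c, s or v and a digit for complex I, Sdha to Sdhd for complex II, and Uqcr names with Cyc1 for complex III. Cox4 to Cox8 names were taken for complex IV, Atp5 names for complex V, and mt-Nd, mt-Cytb, mt-Co and mt-Atp names for the subunits encoded in mitochondrial DNA. This gave 98 of the 14109 genes, with 47 in complex I, 4 in complex II, 10 in complex III, 18 in complex IV and 19 in complex V. The nuclear genome encodes 85 of them and the mitochondrial genome 13. By name 4 members are not structural subunits or carry a pseudogene symbol (Ndufa4l2, Cox7a2l, Ndufb1-ps and Ndufs5-ps). GENCODE annotates 3 members as not protein coding: Ndufb4c and Ndufs5-ps as processed pseudogenes and Ndufb1-ps as a non-coding RNA. Ndufa4 is counted with complex I by its name, although its protein is now placed in complex IV.

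The data are RNA-seq of hearts of WT mice at 3 weeks, R502W mice at 3 weeks, WT mice at 18 weeks and R502W mice at 18 weeks. Each of the 4 groups has 4 libraries, 16 in all. R502W is an amino acid change in cMyBP-C, a thick-filament protein of heart muscle that is altered in hypertrophic cardiomyopathy, and no drug treatment is named for these libraries. The labels name no strain, sex, zygosity or litter and do not tie each library to an animal of its own. The p-values therefore speak only to the spread among these 16 libraries. The study asked how genotype and age alter cardiac gene expression.

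The respiratory chain passes electrons from NADH (complex I) or succinate (complex II) through complex III to oxygen at complex IV, and ATP synthase, called complex V, makes ATP from the proton gradient that this builds. Complexes I, III, IV and V combine a few membrane subunits made inside the mitochondrion with many imported nuclear subunits, while complex II is wholly nuclear. The heart depends on this system for most of its ATP, and striated muscle uses its own isoforms of several complex IV subunits, among them Cox6a2, Cox7a1 and Cox8b.

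Libraries held 17521147 to 30672577 reads, and members encoded in mitochondrial DNA took 19.5% to 24.7% of them, against 2.81% to 3.49% for the nuclear members. Levels below are in CPM, the authors' normalized read counts relative to library size. Differences are on the scale of log2(CPM + 1), which understates the change of weakly expressed genes, and a gene was called when its limma adjusted p, over all 14109 genes, was under 0.05. Every member except Ndufs5-ps had reads in every library. Heart tissue was evident in every library: all 12 ventricular cardiomyocyte markers were measured, and Myl2, the ventricular light chain, lay between 2979 and 4820. The libraries were mostly ventricular by these markers. The 12 summed to 72169 to 87303 CPM, against 2.86 to 863 for 4 atrial markers. How much atrium each library held was not tested. R502W 3 weeks sample 1 and WT 18 weeks sample 2 stood apart from their groups in atrial markers, with Myl7 at 0.76 against 85.8 to 305 and at 263 against 9.43 to 67.7. WT 18 weeks sample 2 and R502W 18 weeks sample 4 were also the libraries with the lowest mitochondrially encoded level of their groups. Some results that move without these libraries are given with and without them.

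Per kilobase of exon, all mitochondrially encoded genes except mt-Nd6 were more abundant than any nuclear member. The length is that of all annotated exons of a gene together, such as 5628 bases for Ndufb2 and 6443 for Atp5l. Levels per kilobase, and the order of genes and complexes by them, therefore depend on the annotation. Averaged over all libraries, mt-Co1, the catalytic subunit of complex IV, was at 56406 CPM per kilobase, mt-Cytb, the mitochondrial subunit of complex III, at 25557 and mt-Nd1, a membrane subunit of complex I, at 22082. The lowest of the 13 was mt-Nd6, at 651. These levels are of each gene's own row alone. Near-identical rows of the table held more than the gene itself for mt-Co3 (29522 CPM against 2467) and mt-Atp6 (26599 against 3701). The order among the mitochondrially encoded genes is therefore uncertain. Among nuclear members the highest were Atp5a1 and Atp5b, the alpha and beta subunits of the catalytic head of ATP synthase, at 1049 and 890 CPM per kilobase, followed by the heart isoform Cox6a2 at 736. The median nuclear gene of complex I stood at 114 CPM per kilobase, against 233, 250, 216 and 149 in complexes II, III, IV and V. In complex I Ndufb9 was highest at 322 CPM per kilobase, and in complexes II and III the highest were Sdha at 307 and Uqcrfs1, the Rieske iron-sulfur protein, at 422. At the bottom stood the isoforms Cox4i2 and Ndufa4l2, at 5.85 and 8.58 CPM per kilobase, whose proteins are known from lung and from hypoxic cells.

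At 3 weeks, transcripts of nuclear subunits of every complex were lower in R502W than in WT hearts. The test called 50 of the 98 members lower, against 3.3% of all genes called lower, and 0 higher, against 3.13% of all genes called higher. All 50 were nuclear genes, and 82 of the 85 nuclear members had a negative difference. The median difference was -0.23 for nuclear members and 0.0008 for all genes. Of the nuclear members, 63 showed no overlap between the libraries of the genotypes (74.1%), against 14.0% of all genes. In the plot of differences by complex, most nuclear members lay below the median of all genes at this age, and Ndufs5-ps (0.97), Cox4i2 (0.20) and Ndufb3 (0.01) lay above it.

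**Figure D1:**
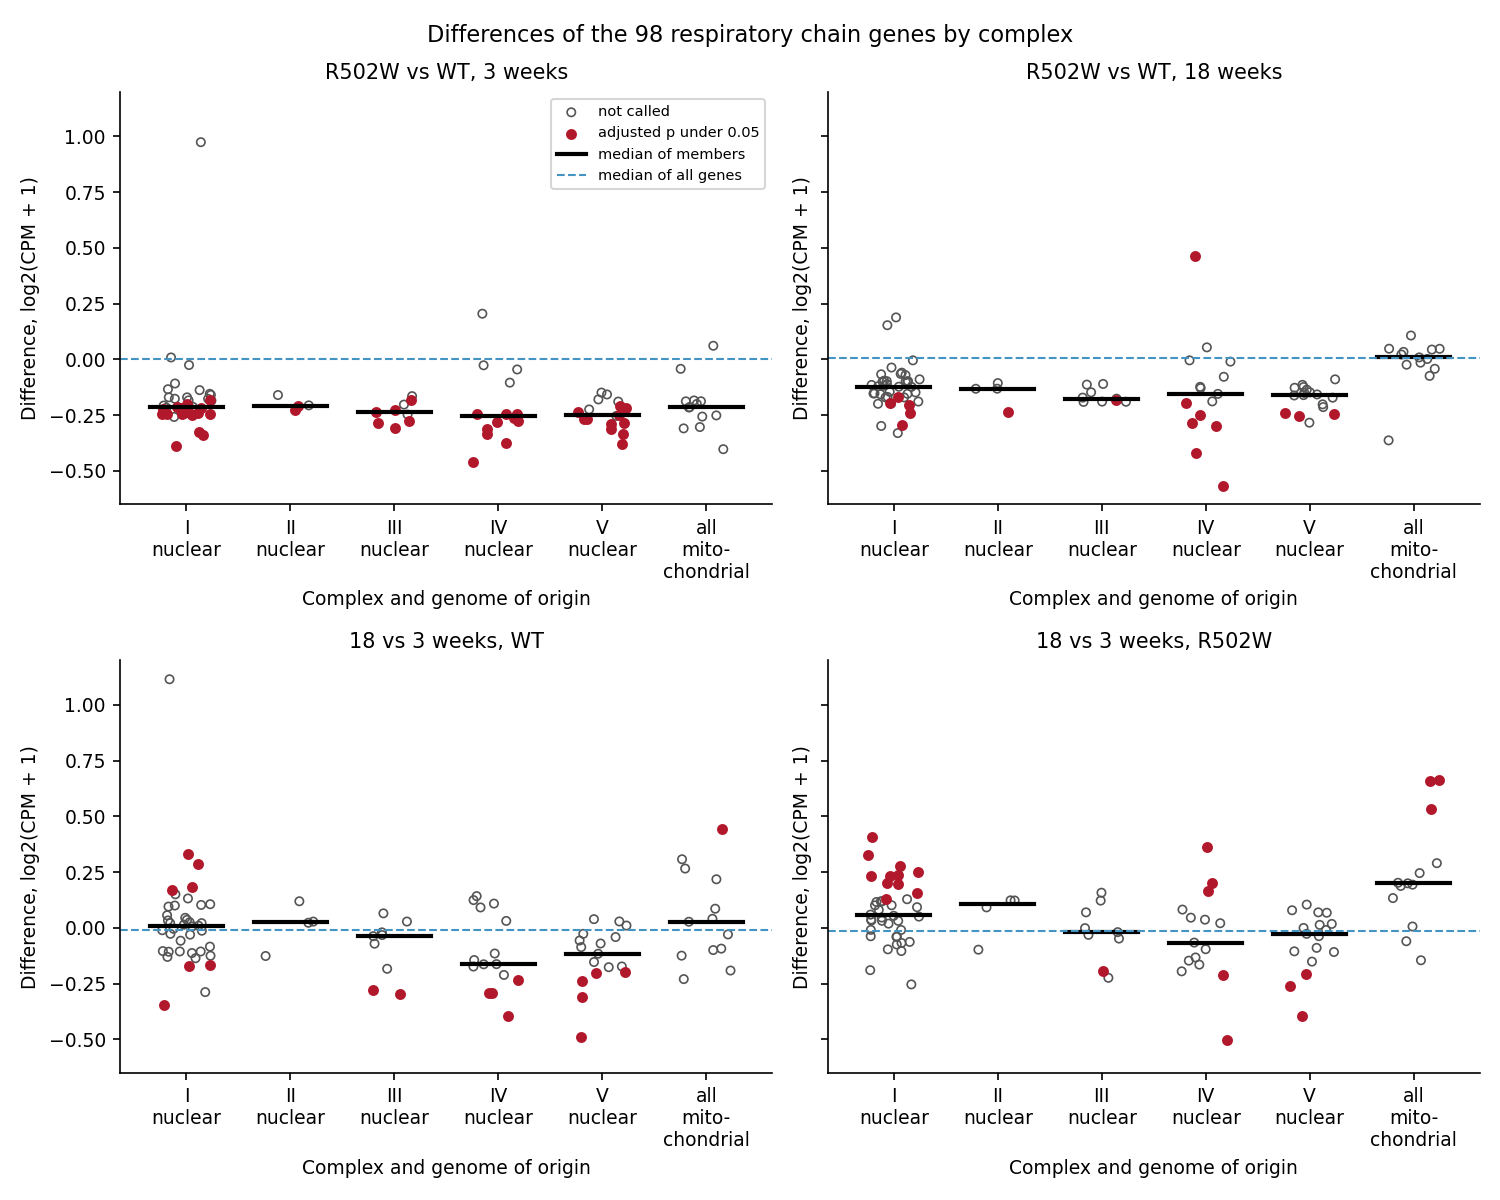
Differences in log2(CPM + 1) of each respiratory chain gene (points) by complex and genome of origin (x axis), for R502W against WT at 3 and 18 weeks and for 18 against 3 weeks in each genotype. Filled points passed an adjusted p of 0.05, bars are medians of the members and the dashed line is the median of all genes; at 3 weeks 50 nuclear members are filled, all below 0.

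The number called at 3 weeks rested on single libraries. It fell to 11 without WT sample 2, 17 without R502W sample 2, 21 without WT sample 1 and 21 without R502W sample 4, and was 55 at most when 1 library was left out. With quantile normalization 37 were called lower, and the nuclear median was -0.19. Calls that held under every alternative numbered 11: Ndufa3, Ndufb6, Uqcrh, Cox4i1, Cox5b, Cox6b1, Cox7a1, Cox8b, Atp5e, Atp5h and Atp5o. A library of heart tissue cannot show whether fewer cells of a type or less RNA per cell lie behind a lower level.

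Markers of heart cell types are given beside this result. The summed level of the 12 ventricular cardiomyocyte markers was 81943 to 83363 CPM in WT and 72866 to 80123 in R502W libraries at 3 weeks, without overlap, and 74570 to 87303 against 72169 to 79929 at 18 weeks, with overlap. At 3 weeks 2 of the 12 were called lower and 1 higher, with a median difference of -0.14. At 18 weeks 1 was called lower and 1 higher, with a median of -0.13. The 8 fibroblast markers summed to 1729 to 2006 CPM in WT and 1864 to 2766 in R502W at 3 weeks, and 1 of them was called higher. At 18 weeks they summed to 815 to 905 in WT and 967 to 1167 in R502W, without overlap, and 3 were called higher. The shares of all genes called lower and higher were 3.3% and 3.13% at 3 weeks, and 5.1% and 5.6% at 18 weeks. Of 4 atrial and 5 erythroid markers 0 were called at either age. Atrial medians were -0.70 at 3 weeks and 2.08 at 18 weeks, and erythroid medians were 0.17 and -0.72. The part of these markers in the genotype differences was not tested.

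In complex I, 20 of 40 nuclear members fell at 3 weeks, with a median difference of -0.21. The 7 nuclear core subunits, which bind NADH, flavin and the iron-sulfur clusters, included 4 that fell, and the 30 rows with accessory subunit names, whose proteins build the outer shell, included 15, with the pseudogene Ndufb4c among them. Ndufs8, a core subunit that carries iron-sulfur clusters, was at 129, 135, 126 and 124 CPM in WT samples 1 to 4 and at 111, 106, 112 and 111 in R502W. Every R502W library was below every WT library, and the difference was -0.22 (SE 0.05, limma adjusted p = 0.0125). This call was lost without WT sample 2 or R502W sample 2, with an adjusted p of 0.0528 at most. Ndufa3, a small accessory subunit, was at 136, 139, 122 and 108 in WT and 101, 97.5, 105 and 93.3 in R502W, again without overlap (-0.34, limma adjusted p = 0.00985). The NADH-binding flavoprotein subunit Ndufv1 was at 497, 509, 476 and 483 in WT and 451, 393, 404 and 429 in R502W (-0.23, limma adjusted p = 0.0129), and its iron-sulfur partner Ndufv2 fell by 0.23 (limma adjusted p = 0.0203), both without overlap. Among membrane-arm accessory subunits, Ndufb6 fell by 0.24 (limma adjusted p = 0.00965) and Ndufb11 by 0.25 (limma adjusted p = 0.0207). The row of Ndufb4c, annotated as a processed pseudogene, fell by 0.33 (limma adjusted p = 0.0242). Of these 5 genes, the calls of Ndufv1, Ndufv2, Ndufb11 and Ndufb4c were lost without WT sample 2 or R502W sample 2, with adjusted p of 0.0944 at most over all alternatives. At the other end, Ndufb3 differed by 0.01 and the hypoxia-inducible Ndufa4l2 by -0.03, and neither was called.

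All 4 genes of complex II, the succinate dehydrogenase of the tricarboxylic acid cycle, were lower in each R502W library than in each WT library at 3 weeks, and 2 passed the test. Sdhc, a membrane anchor, was at 346, 364, 345 and 338 CPM in WT and 313, 295, 292 and 290 in R502W, a difference of -0.23 (SE 0.05, limma adjusted p = 0.0147) whose call was lost without WT sample 2 (adjusted p = 0.0609). Sdha, the flavoprotein, was at 1243, 1348, 1331 and 1305 in WT and 1168, 1049, 1187 and 1113 in R502W (-0.21, limma adjusted p = 0.0342). Its call ended in 7 alternatives, among them quantile normalization and 5 that leave out 1 library (WT samples 2, 3 and 4 and R502W samples 2 and 4), with an adjusted p of 0.138 at most. The genotypes did not overlap for either gene.

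In complex III, which oxidises ubiquinol, 6 of 9 nuclear members fell at 3 weeks and all 9 had a negative difference, from -0.31 for Uqcr10 to -0.17 for Cyc1. Uqcrh, the hinge protein beside cytochrome c1, was at 380, 374, 361 and 348 CPM in WT and 326, 295, 310 and 279 in R502W, without overlap (-0.27, SE 0.06, limma adjusted p = 0.0126). Uqcrc1, a core protein, went from 881 ± 13.2 to 748 ± 35.2 (SD, n = 4; -0.24, limma adjusted p = 0.0159). Its call was lost without WT sample 2 or R502W sample 2, where the adjusted p reached 0.0691. Uqcrq, a small subunit near the ubiquinone site, was at 262, 254, 229 and 223 in WT and 205, 192, 199 and 197 in R502W, without overlap (-0.28, limma adjusted p = 0.0122), and its adjusted p was 0.0502 without WT sample 2.

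Complex IV, cytochrome c oxidase, held the largest called fall of a member at each age. At 3 weeks 11 of its 15 nuclear members fell. Cox7a1 (chr7:30184144-30186078 on GRCm38), the heart and muscle isoform of subunit VIIa, was at 294, 298, 255 and 241 CPM in WT and at 199, 206, 203 and 180 in R502W at 3 weeks, and at 299, 283, 290 and 325 against 188, 234, 209 and 180 at 18 weeks. No R502W library reached the lowest WT library at either age. At 3 weeks the difference was -0.46 (SE 0.08, limma adjusted p = 0.00223). It was -0.57 at 18 weeks, with the same SE (limma adjusted p = 0.000163).

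Cox8b (chr7:140898945-140900446), the muscle isoform of subunit VIII, also separated the genotypes. It was at 199, 188, 157 and 149 CPM in WT and 138, 129, 138 and 123 in R502W at 3 weeks, and at 185, 174, 181 and 212 against 145, 137, 144 and 134 at 18 weeks. The genotypes were separate at both ages, by -0.38 (limma adjusted p = 0.00852) and -0.42 (limma adjusted p = 0.00219). Both genes kept their call under every alternative at both ages. Cox8b and Cox7a1 are also brown fat genes, so markers of that tissue are given beside them. Of 4 measured markers, which include Cox8b itself, Cox8b was the 1 called lower at 3 weeks, and Cox8b and Ppargc1a were called lower at 18 weeks. The 4 summed to 274 to 328 CPM in WT and 268 to 342 in R502W at the younger age, and to 340 to 456 against 242 to 278, without overlap, at the older. Most of this sum is Cox8b and Ppargc1a, which is also a heart gene, with means over all libraries of 158 and 140 CPM. The sum therefore largely repeats their 2 calls and is no separate measure of brown fat. Ucp1, which defines brown fat, had 0 reads in most libraries, reached at most 6.03 CPM and had group means of 0.215 (WT) and 2.48 (R502W) at the younger and 0.024 and 1.26 at the older age. Cidea had group means of 12.7, 14.6, 16.6 and 18.2 in WT and R502W at 3 weeks and WT and R502W at 18 weeks. The part of brown fat in these results was not tested.

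The paralogs that other tissues use were compared in the same way. Cox7a2, the common isoform of subunit VIIa, was at 199, 196, 178 and 183 CPM in WT and 173, 158, 159 and 146 in R502W at 3 weeks (-0.25, limma adjusted p = 0.0306), and the difference was the same size at 18 weeks (-0.25, limma adjusted p = 0.0204). These calls were lost without WT sample 1 or 2 or R502W sample 2, 3 or 4 at 3 weeks, and without WT sample 4 or R502W sample 3 or 4 or with only the groups compared at 18 weeks, with adjusted p of at most 0.0944 and 0.0810. Cox8a, the common isoform of subunit VIII, differed between genotypes by -0.03 at 3 weeks and 0.05 at 18 weeks, and Cox6a1, the common form of subunit VIa, by -0.05 and -0.16, all with overlapping libraries and no call. Cox4i2 (chr2:152754173-152765037), the minor isoform of subunit IV, was at 5.21, 4.58, 3.27 and 4.40 in WT and 4.45, 4.99, 5.16 and 5.999 in R502W at 3 weeks, overlapping. At 18 weeks it was at 3.80, 3.26, 3.30 and 4.06 in WT and 5.61, 4.91, 5.41 and 5.36 in R502W, without overlap, a rise of 0.46 (SE 0.12, limma adjusted p = 0.0180) that stayed called in every alternative. Cox6c, a small nuclear subunit, was at 534, 516, 474 and 429 in WT and 424, 382, 408 and 354 in R502W at 3 weeks (-0.31, limma adjusted p = 0.0159) and at 418, 437, 395 and 479 against 365, 371, 351 and 327 at 18 weeks (-0.29, limma adjusted p = 0.0185), without overlap at either age. Its calls were lost without WT sample 1 or 2 or R502W sample 2 or 4 at 3 weeks and without WT or R502W sample 4 at 18 weeks (adjusted p of 0.0672 at most).

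Ratios within a library, which do not depend on the scaling, set the isoforms against each other. Cox7a1 over Cox7a2 was 1.32 to 1.53 in WT and 1.15 to 1.30 in R502W at 3 weeks, and 1.65 to 1.84 against 1.25 to 1.53 at 18 weeks. The genotypes were separate at both ages. Cox8b over Cox8a was 2.47 to 3.22 against 2.12 to 2.28 at 3 weeks and 3.40 to 4.06 against 2.61 to 2.84 at 18 weeks, also separate. Cox4i1, the main isoform of subunit IV, exceeded Cox4i2 by a factor of 180 to 258 in WT and 127 to 175 in R502W at 3 weeks, and of 236 to 268 against 142 to 177 at 18 weeks. Cox6a2 over Cox6a1 overlapped between genotypes at both ages, and Ndufa4 over Ndufa4l2 did as well.

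**Figure D2:**
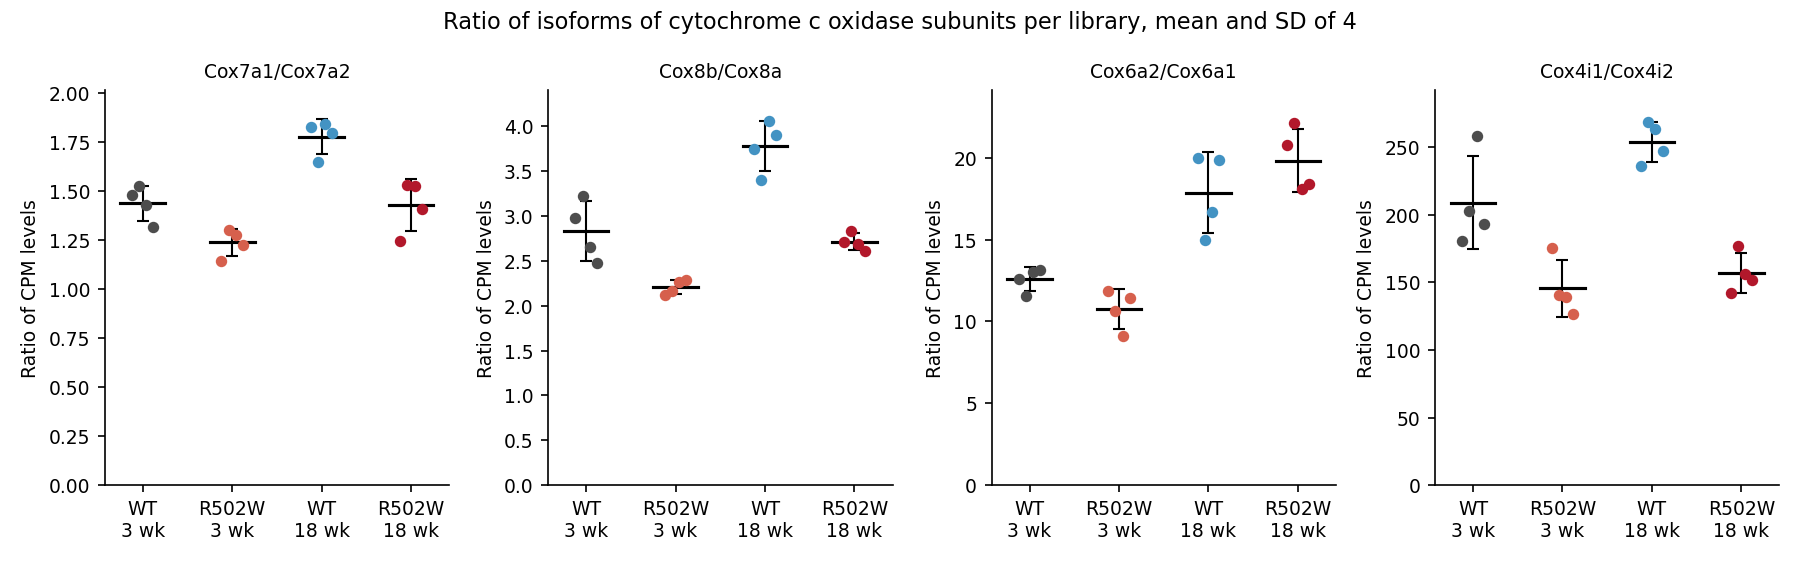
Ratio of the CPM levels of 2 isoforms of a cytochrome c oxidase subunit (y axis, linear from 0) in each library (points), by group, with the mean (bar) and SD of 4 libraries. Cox7a1 over Cox7a2, Cox8b over Cox8a and Cox4i1 over Cox4i2 are separate between genotypes at each age, while Cox6a2 over Cox6a1 separates the ages.

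The start regions of these isoform genes are shown because the pairs moved unequally. Each window holds 250 bases before and 50 after a transcription start, from RefSeq on GRCm38.p6, written in the direction of the gene. Capitals mark matches to 3 motifs searched on both strands: GCATGCGC, part of the NRF-1 consensus, CCGGAAG, the core bound by ETS factors such as GABP, and AAGGTCA, the core element of estrogen-related receptors. Cox7a1 lies on the plus strand (chr7:30183921-30184220) and Cox8b on the minus strand (chr7:140900397-140900696). Their common paralogs Cox7a2 (chr9:79759804-79760103), Cox8a (chr19:7217567-7217866) and, for subunit VIa, Cox6a1 (chr5:115348909-115349208) lie on the minus strand.
Cox7a1: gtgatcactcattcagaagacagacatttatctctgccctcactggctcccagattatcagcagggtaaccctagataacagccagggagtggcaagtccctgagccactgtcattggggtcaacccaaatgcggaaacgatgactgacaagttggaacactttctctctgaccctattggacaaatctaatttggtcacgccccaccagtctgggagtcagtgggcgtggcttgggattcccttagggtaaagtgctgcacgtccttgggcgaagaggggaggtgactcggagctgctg
Cox8b: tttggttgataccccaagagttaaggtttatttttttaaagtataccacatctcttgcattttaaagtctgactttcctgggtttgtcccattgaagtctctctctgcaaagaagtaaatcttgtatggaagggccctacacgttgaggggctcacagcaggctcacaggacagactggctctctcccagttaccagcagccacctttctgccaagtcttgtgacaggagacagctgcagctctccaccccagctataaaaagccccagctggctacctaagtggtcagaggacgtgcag
Cox7a2: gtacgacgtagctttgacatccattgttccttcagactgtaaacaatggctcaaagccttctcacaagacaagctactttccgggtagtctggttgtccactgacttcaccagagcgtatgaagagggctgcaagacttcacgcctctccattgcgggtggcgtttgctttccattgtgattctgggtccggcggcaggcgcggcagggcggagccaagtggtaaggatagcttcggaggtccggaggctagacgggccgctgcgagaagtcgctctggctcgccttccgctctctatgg
Cox8a: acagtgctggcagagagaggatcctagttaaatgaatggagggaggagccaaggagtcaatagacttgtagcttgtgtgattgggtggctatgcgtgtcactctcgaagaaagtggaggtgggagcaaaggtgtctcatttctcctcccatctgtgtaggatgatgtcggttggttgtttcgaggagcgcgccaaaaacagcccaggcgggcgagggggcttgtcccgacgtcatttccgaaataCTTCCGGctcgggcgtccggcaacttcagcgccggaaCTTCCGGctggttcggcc
Cox6a1: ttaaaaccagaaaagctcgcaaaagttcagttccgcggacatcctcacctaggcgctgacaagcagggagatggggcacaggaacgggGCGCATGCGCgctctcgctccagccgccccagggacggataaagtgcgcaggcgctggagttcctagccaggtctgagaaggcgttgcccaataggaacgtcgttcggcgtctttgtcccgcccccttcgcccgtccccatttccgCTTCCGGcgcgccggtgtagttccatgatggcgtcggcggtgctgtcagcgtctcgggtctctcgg
The windows of Cox7a1, Cox8b and Cox7a2 held none of the 3 motifs. That of Cox8a held CCGGAAG on the opposite strand in 2 places, and that of Cox6a1 held GCATGCGC on both strands, overlapping each other, and CCGGAAG on the opposite strand in 1 place. No match in a window says only that these letters are not in it.

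A window was given for 67 of the 85 nuclear members. GCATGCGC stood in at least 1 window of 14.9% of these genes, against 3.05% of all 27025 genes with a window, CCGGAAG in 25.4% against 9.93%, and AAGGTCA in 11.9% against 5.38%. The genotype differences were set beside the motifs as a description. At 3 weeks the median was -0.21 in the 10 with GCATGCGC and -0.23 in the 57 without, -0.23 in the 17 with CCGGAAG and -0.22 in the 50 without, and -0.25 in the 8 with AAGGTCA and -0.22 in the 59 without. At 18 weeks the genotype medians with and without each motif all lay between -0.161 and -0.148. With age in WT, the medians with and without were -0.02 and -0.07 for GCATGCGC, -0.15 and -0.02 for CCGGAAG, and -0.12 and -0.03 for AAGGTCA. In R502W the age medians were 0.03 and 0.02 for GCATGCGC, -0.07 and 0.04 for CCGGAAG, and -0.06 and 0.03 for AAGGTCA.

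In complex V, 11 of 17 nuclear members fell at 3 weeks and all 17 had a negative difference. Atp5o, the stalk subunit that confers oligomycin sensitivity, was at 633, 639, 595 and 597 CPM in WT and 551, 512, 494 and 492 in R502W, without overlap (-0.27, SE 0.06, limma adjusted p = 0.00853). Atp5e, the epsilon subunit of the rotor, was at 208, 193, 177 and 177 in WT and 162, 145, 142 and 147 in R502W, also separate (-0.33, limma adjusted p = 0.00754). Atp5b, the catalytic beta subunit, averaged 4106 ± 84.3 in the WT group against 3529 ± 153 in the R502W group (SD, n = 4; -0.22, limma adjusted p = 0.0420), but its difference was 0.07 under quantile normalization, and its call was lost without any 1 of the 8 libraries compared except R502W sample 1 (adjusted p of 0.659 at most over all alternatives). The 3 genes for the c-ring, which encode the same mature protein, differed by -0.18 (Atp5g1), -0.16 (Atp5g2) and -0.24 (Atp5g3), and only Atp5g3 was called. That call was lost without WT sample 1 or 2 or R502W sample 2 or 4, with an adjusted p of 0.0764 at most.

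At 18 weeks fewer members were called. The test called 16 lower, against 5.1% of all genes called lower, and 1 higher, Cox4i2, against 5.6% of all genes called higher. All were nuclear. By complex the falls were 5 of 40 in complex I, 1 of 4 in complex II, 1 of 9 in complex III, 6 of 15 in complex IV and 3 of 17 in complex V. The nuclear median was -0.15, against 0.005 for all genes, and 30 nuclear members did not overlap between genotypes (35.3%), against 13.7% of all genes. Without 1 library the count of falls ranged from 4 (R502W sample 4) through 5 (WT sample 4) and 8 (R502W sample 1) to 21. A fit of only the groups compared called 7 and DESeq2 called 27.

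Falls at 18 weeks that held in every alternative were those of Cox7a1, Cox8b and Atp5j2, the f subunit of the ATP synthase membrane part. Atp5j2 was at 325, 349, 323 and 374 CPM in WT and 277, 309, 298 and 275 in R502W, without overlap (-0.24, SE 0.06, limma adjusted p = 0.0129). Sdha was at 1442, 1423, 1329 and 1485 in WT and 1233, 1242, 1232 and 1107 in R502W, also separate (-0.24, limma adjusted p = 0.0117). Its adjusted p was 0.0539 when only the groups compared were fitted. Ndufs8 averaged 130 ± 8.60 in the WT group against 112 ± 4.99 in the R502W group (SD, n = 4; -0.21, limma adjusted p = 0.0135), a call lost without R502W sample 4 or with only the groups compared (adjusted p of 0.0607 at most). Uqcrc2, a core protein of complex III, was at 779, 831, 797 and 812 in WT and 709, 748, 733 and 651 in R502W (-0.18, limma adjusted p = 0.0301), and its call ended in 6 alternatives, 4 of which leave out WT sample 2 or 4 or R502W sample 1 or 4 (adjusted p of 0.105 at most). Further falls were those of the accessory subunit Ndufa12 (-0.20, limma adjusted p = 0.0274), of the pseudogene row Ndufb4c (-0.30, limma adjusted p = 0.0286) and of the small ATP synthase membrane subunits Atp5l (-0.24, limma adjusted p = 0.0380) and Atp5md (-0.26, limma adjusted p = 0.0318). Only Atp5md overlapped between genotypes, and each of these 4 calls was lost when WT sample 4 or R502W sample 1 or 4 was left out.

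The difference between ages in the genotype effect was tested directly. Of the members, 14 were called lower at both ages, 36 at 3 weeks only and 2 at 18 weeks only, and 85 had a negative difference at both. The interaction of genotype and age called 0 members with limma, edgeR or DESeq2, with 2 at an unadjusted p under 0.05, against 0.0142% of all genes called in the negative and 0.0638% in the positive direction. The smallest limma adjusted p was 0.333, for Cox6a2, the heart isoform of subunit VIa, which was lower at 3 weeks (542, 492, 489 and 501 CPM in WT and 466, 409, 379 and 418 in R502W) and overlapped between genotypes at 18 weeks (570, 489, 497 and 607 against 554, 541, 544 and 509). Its fall at 3 weeks (-0.28, limma adjusted p = 0.0247) was lost under quantile normalization and without WT sample 1, 2 or 4 or R502W sample 2 or 3 (adjusted p of 0.104 at most). The interaction estimate was positive for 89 of the 98 members, with a median of 0.08. A smaller genotype effect at 18 weeks was therefore not shown for any member.

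Summed over genes, the nuclear part of each complex was lower in R502W. The summed nuclear level was 32621 to 34667 CPM in WT and 27700 to 30514 in R502W libraries at 3 weeks, a mean change of -14.5%. It was 31301 to 35123 against 27298 to 30554 at 18 weeks, a mean change of -10.1%. Neither age showed overlap. By complex the mean change at 3 weeks was -13.4% in complex I, -13.2% in complex II, -14.1% in complex III, -17.4% in complex IV and -14.5% in complex V, without overlap in any. At 18 weeks complex I overlapped between genotypes (-8.24%), and the others did not (-10.2% to -12%). As a plain share of reads, with no scaling factor, nuclear members took 3.37% ± 0.10 (WT) against 3.08% ± 0.13 (R502W) at 3 weeks. At 18 weeks they took 3.17% ± 0.21 against 2.84% ± 0.04 (SD, n = 4), and the changes were -8.48% and -10.3%. Those shares did not overlap between genotypes, but the shares of complexes I and II did at 3 weeks.

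**Figure D3:**
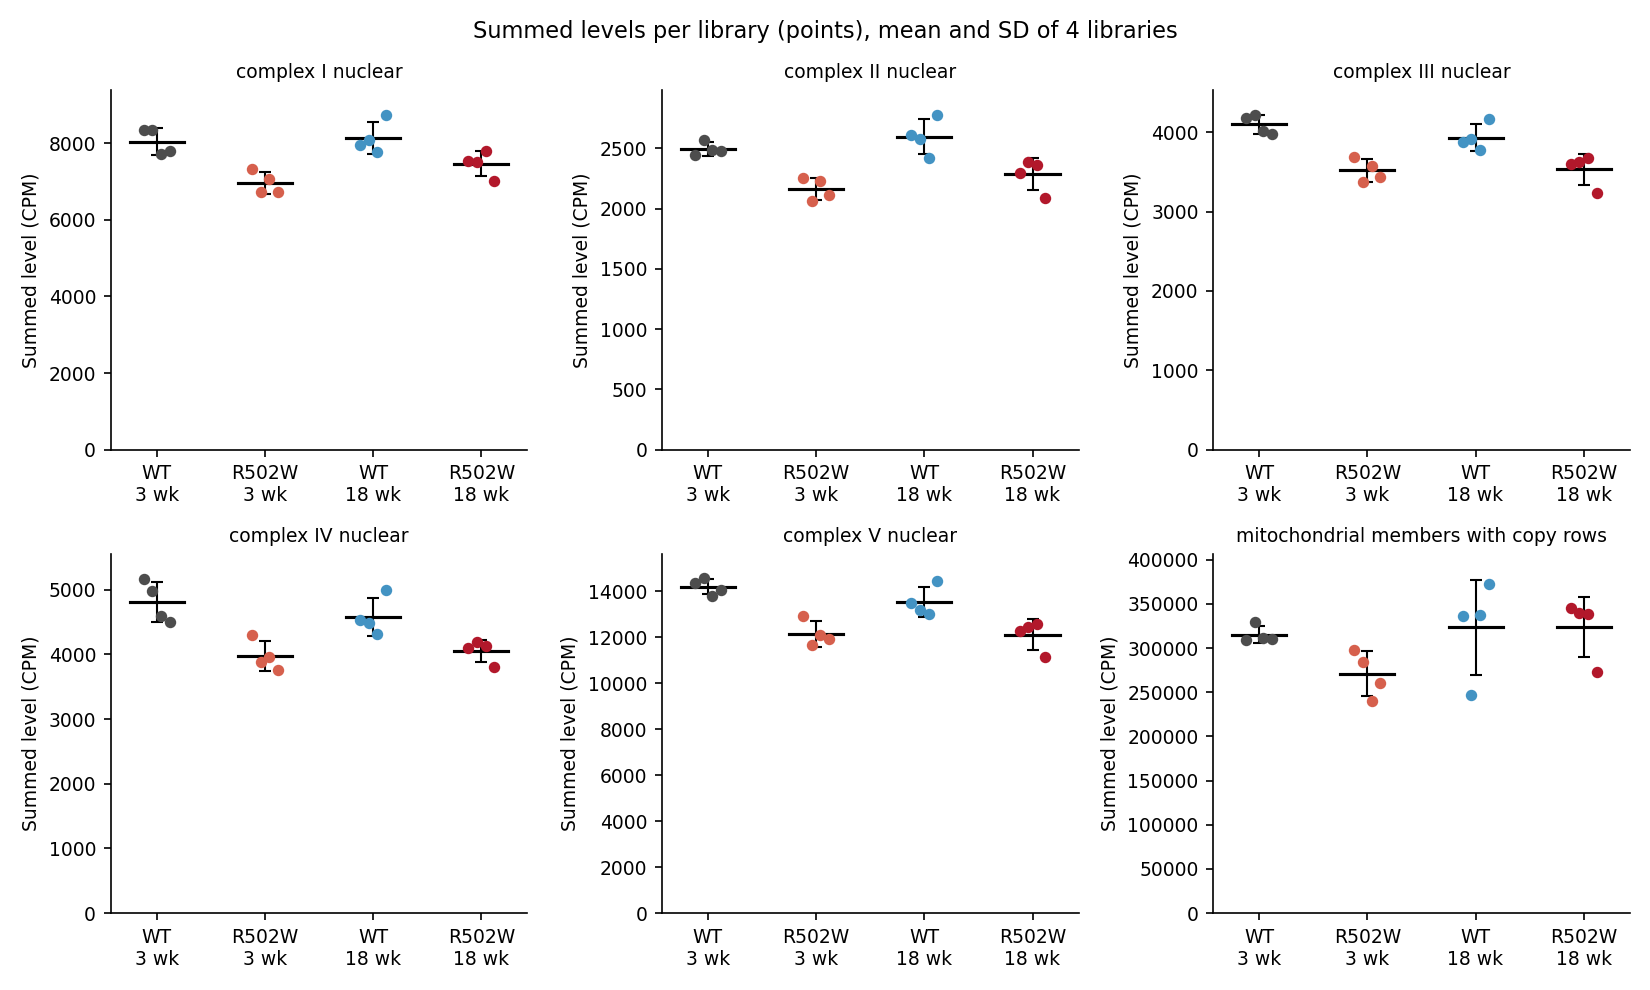
Summed CPM of the nuclear members of each complex and of the mitochondrially encoded members with their copy rows (y axes, linear from 0) in each library (points), by group, with the mean (bar) and SD of 4 libraries. The nuclear sums of R502W lie below those of WT at 3 weeks in all 5 complexes, and the mitochondrial sums of 1 WT and 1 R502W library at 18 weeks lie far below the rest of their group.

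The mitochondrially encoded members had a similar median difference at 3 weeks but no call. Their median was -0.21 at 3 weeks, with 12 of 13 negative, and 0.01 at 18 weeks, with 5 negative. At 3 weeks 6 did not overlap between genotypes (46.2%), against 14.0% of all genes. At 18 weeks 0 were separate, against 13.7% of all genes. Under quantile normalization the median at 3 weeks was 0. The limma test called 0 of the 13 at either age. The largest difference was that of mt-Atp8, a small membrane subunit of ATP synthase, which was at 2397, 2239, 2396 and 2059 CPM in WT and 2034, 1957, 1542 and 1410 in R502W at 3 weeks, without overlap (-0.40, SE 0.14, limma adjusted p = 0.111), and at 2337, 1475, 2312 and 2517 against 1949, 1571, 1604 and 1491 at 18 weeks, with overlap. For mt-Co1 the SE was 0.20, against 0.05 for Ndufs8, so a difference of the size seen in nuclear genes was not detectable for it. Summed, the 13 took 226353 to 241799 CPM in WT and 177564 to 216621 in R502W at 3 weeks, and overlapped at 18 weeks. For the complex I subunits mt-Nd1, mt-Nd2, mt-Nd3, mt-Nd4, mt-Nd4l and mt-Nd5 the differences at 3 weeks were -0.21, -0.19, -0.04, -0.18, -0.26 and -0.19, and for mt-Nd6, which is read from the other strand, 0.06. The signs of mt-Nd3 and mt-Nd6 turned in 3 and 1 of the alternatives. Of these, mt-Nd4 was the most abundant complex I row, at 25188, 25424, 25617 and 25589 CPM in WT and 24458, 23152, 20166 and 22031 in R502W at 3 weeks, without overlap. In complexes III and IV mt-Cytb differed by -0.25, mt-Co1 by -0.22, mt-Co2 by -0.30 and mt-Co3 by -0.20. All these differences are of each gene's own row. With the reads of its near-identical row Gm28438 added, mt-Nd3 differed by -0.34 at 3 weeks (limma adjusted p = 0.146), in place of -0.04. Gm28438 held 65.8% to 67.4% of their joint reads in WT and 51.4% to 63.5% in R502W at that age, without overlap. With such rows added, 0 of the 13 were called at either age.

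Several mitochondrially encoded genes share their reads with near-identical rows of the table. Alignment of their transcripts to the table's other transcripts found 8 such rows, for 7 of the 13 genes, with an identity of 97.6% to 100%. The row Gm28437 matched mt-Co3, a core subunit of complex IV, over 783 bases at 100% and held 29522 CPM on average, against 2467 on mt-Co3 itself. Gm10925 matched mt-Atp6, the channel subunit of ATP synthase, over 678 bases at 100% and held 26599 CPM against 3701. Gm28661 matched mt-Co2, the copper-bearing subunit that takes electrons from cytochrome c, over 681 bases at 100% and held 13426 CPM against 14878. The share of reads on the copy row varied between libraries, for mt-Co2 from 16.4% to 60.0%, so the levels of these members alone are uncertain. The 16.4% is that of R502W 18 weeks sample 4, and the next lowest share was 41.9%. Gene and copy rows were therefore also summed and tested again, an alternative chosen after seeing the data.

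With age, and over both genotypes, members were called in both directions in complex I and complex IV, and in neither in complex II. In complex III and the nuclear part of complex V the calls were falls. In WT hearts 14 members were lower at 18 than at 3 weeks, against 14.4% of all genes called lower, and 5 were higher, against 15.8% of all genes called higher. In R502W hearts 6 were lower, against 17.3%, and 17 higher, against 18.5%. The share of members called was thus near or under that of all genes. The median of nuclear members was -0.04 in WT and 0.03 in R502W, against -0.01 for all genes in both, but under quantile normalization these medians were -0.13 and -0.09, with 36 lower and 2 higher in WT and 34 lower and 6 higher in R502W. Leaving out 1 library moved the falls in WT between 9 (WT 3 weeks sample 1) and 24 (WT 18 weeks sample 4) and the rises between 2 and 6, with 2 without WT 18 weeks sample 4 and 3 without WT 3 weeks sample 3 or 4. In R502W the falls were 2 without 3 weeks sample 1 or 3, 3 without 18 weeks sample 4 and 11 without 3 weeks sample 4.

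Markers of other cell types also moved with age. Of 8 fibroblast markers, 8 fell in WT (median -0.86) and 6 in R502W (median -0.66), and their sum lay between 1729 and 2006 CPM at 3 weeks and between 815 and 905 at 18 weeks in WT. In R502W that sum was 1864 to 2766 at the younger and 967 to 1167 at the older age. Of 7 mural cell markers 4 fell in WT and 5 in R502W, with a median of -0.59 in each. Of 5 erythroid markers 0 were called in WT (median -0.40) and 4 fell in R502W (median -1.34), and of 8 endothelial markers 4 fell in WT and 1 in R502W. Of 4 atrial markers 0 were called in either genotype, with medians of -1.11 in WT and 1.59 in R502W. The shares of all genes called lower with age were 14.4% in WT and 17.3% in R502W. The endothelial count in R502W and the erythroid count in WT were not above them. The part of these markers in the age differences was not tested.

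Complex I held rises with age in both genotypes. Ndufs7 (chr10:80249121-80256794), which carries the last iron-sulfur cluster before ubiquinone, was at 172, 163, 157 and 165 CPM at 3 weeks and 205, 209, 188 and 225 at 18 weeks in WT, and at 143, 135, 153 and 149 against 199, 190, 204 and 179 in R502W. The ages did not overlap in either genotype, and the rise was 0.33 in WT (SE 0.06, limma adjusted p = 0.000299) and 0.41 in R502W (SE 0.06, limma adjusted p = 2.8e-05), called in every alternative. Ndufv1 rose by 0.24 in R502W (limma adjusted p = 0.00193), a call lost under quantile normalization (adjusted p = 0.0619). In WT Ndufa12 rose by 0.17 (limma adjusted p = 0.0254), while Ndufv2 fell by 0.17 (limma adjusted p = 0.0314) and Ndufb11 by 0.17 (limma adjusted p = 0.0404). Those 3 calls each ended in 3 to 8 alternatives, for Ndufa12 without 3 weeks sample 3 or 18 weeks sample 4, and for both others without 3 weeks sample 1 or 2 or 18 weeks sample 1, 2 or 3. In all, 11 of 40 nuclear complex I members rose and 0 fell with age in R502W, where 18.5% of all genes were called higher and 17.3% lower. In WT 4 rose and 3 fell, shares below those of all genes (15.8% and 14.4%), and that contrast between genotypes was not called for any member by limma.

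Complexes III to V held most of the falls with age. In WT 2 of 9, 4 of 15 and 5 of 17 of their nuclear members were called lower, against 14.4% of all genes. In R502W 1, 2 and 3 were, shares near or under the 17.3% of all genes. Cox6a1 was at 43.0, 42.7, 37.5 and 38.1 CPM at 3 weeks and 28.5, 32.7, 29.8 and 30.6 at 18 weeks in WT, and at 39.3, 38.5, 41.7 and 36.6 against 26.7, 24.5, 30.1 and 27.7 in R502W. The ages were separate in both genotypes (-0.40, limma adjusted p = 0.000297, and -0.50, limma adjusted p = 2.0e-05). Its heart isoform Cox6a2 rose by 0.36 in R502W (limma adjusted p = 0.000626) and was not called in WT (0.09), while their ratio separated the ages in both. Cox6a2 over Cox6a1 lay between 11.5 and 13.1 at 3 weeks and between 15.0 and 19.98 at 18 weeks in WT. In R502W it lay between 9.09 and 11.9 and between 18.1 and 22.1. Cox8b over Cox8a also rose with age without overlap in both genotypes, and Cox8a itself fell by 0.29 in WT (limma adjusted p = 0.00324) and by 0.21 in R502W (limma adjusted p = 0.0219). The call in R502W was lost without 3 weeks sample 1 or 3, without 18 weeks sample 2 or without both libraries apart in atrial markers (adjusted p of 0.0785 at most).

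Atp5k (chr5:108433244-108434448), the e subunit that helps ATP synthase to form dimers, was at 240, 211, 192 and 180 CPM at 3 weeks and 145, 142, 137 and 159 at 18 weeks in WT, and at 181, 160, 160 and 131 against 129, 112, 116 and 122 in R502W. The ages did not overlap in either genotype (-0.49, limma adjusted p = 0.000456, and -0.39, limma adjusted p = 0.00231). Atp5k was lower in R502W at 3 weeks too (-0.38, limma adjusted p = 0.0159), with overlap and a call lost without WT sample 1 or 2 or R502W sample 4 (adjusted p of 0.0559 at most). Uqcrh fell by 0.28 with age in WT (limma adjusted p = 0.00257) in every alternative. The falls of Uqcrb, which sits at the ubiquinone site of complex III (-0.30), of Cox6b1, which faces the intermembrane space (-0.29), and of Atp5o (-0.24) in WT held in every alternative as well. Atp5mpl, a small subunit of the ATP synthase membrane part, fell by 0.31 in WT (limma adjusted p = 0.00696) in every alternative and by 0.26 in R502W (limma adjusted p = 0.0182), where the call was lost without 3 weeks sample 1 or 3 or 18 weeks sample 4 (adjusted p of 0.0687 at most).

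Of the mitochondrially encoded members, mt-Co3 was called higher with age in WT (0.44, limma adjusted p = 0.0338), and mt-Co2 (0.66, limma adjusted p = 0.000965), mt-Co3 (0.66, limma adjusted p = 0.00220) and mt-Atp6 (0.53, limma adjusted p = 0.00846) in R502W. The call of mt-Co3 in WT ended in 8 alternatives, among them quantile normalization and 5 that leave out 1 library (3 weeks samples 1, 2 and 4 and 18 weeks samples 3 and 4). Taken alone, mt-Co2 (chrM:7013-7696) was at 11709, 10549, 11384 and 10678 CPM at 3 weeks and 15331, 16616, 16611 and 22022 at 18 weeks in R502W. The 22022 is that of 18 weeks sample 4, the library with the lowest share of mt-Co2 reads on the copy row (16.4%). Once each gene was summed with its copy row, the rises of mt-Co2 (0.30, limma adjusted p = 0.0564) and mt-Co3 (0.35, limma adjusted p = 0.0652) in R502W and of mt-Co3 in WT (0.04, limma adjusted p = 0.859) were no longer called. Summed with Gm10925, mt-Atp6 was at 27771, 25984, 21371 and 23901 CPM at 3 weeks and 34911, 35054, 35563 and 29586 at 18 weeks in R502W, without overlap (0.45, SE 0.14, limma adjusted p = 0.0195). That was the 1 mitochondrially encoded gene called with age after summing, and on its own row the call was lost under quantile normalization (0.26, adjusted p = 0.0833). In WT the same sum was at 28625, 31374, 28607 and 28305 against 35422, 24288, 35409 and 38622, with WT sample 2 below every library of 3 weeks (0.17, limma adjusted p = 0.386).

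**Figure D4:**
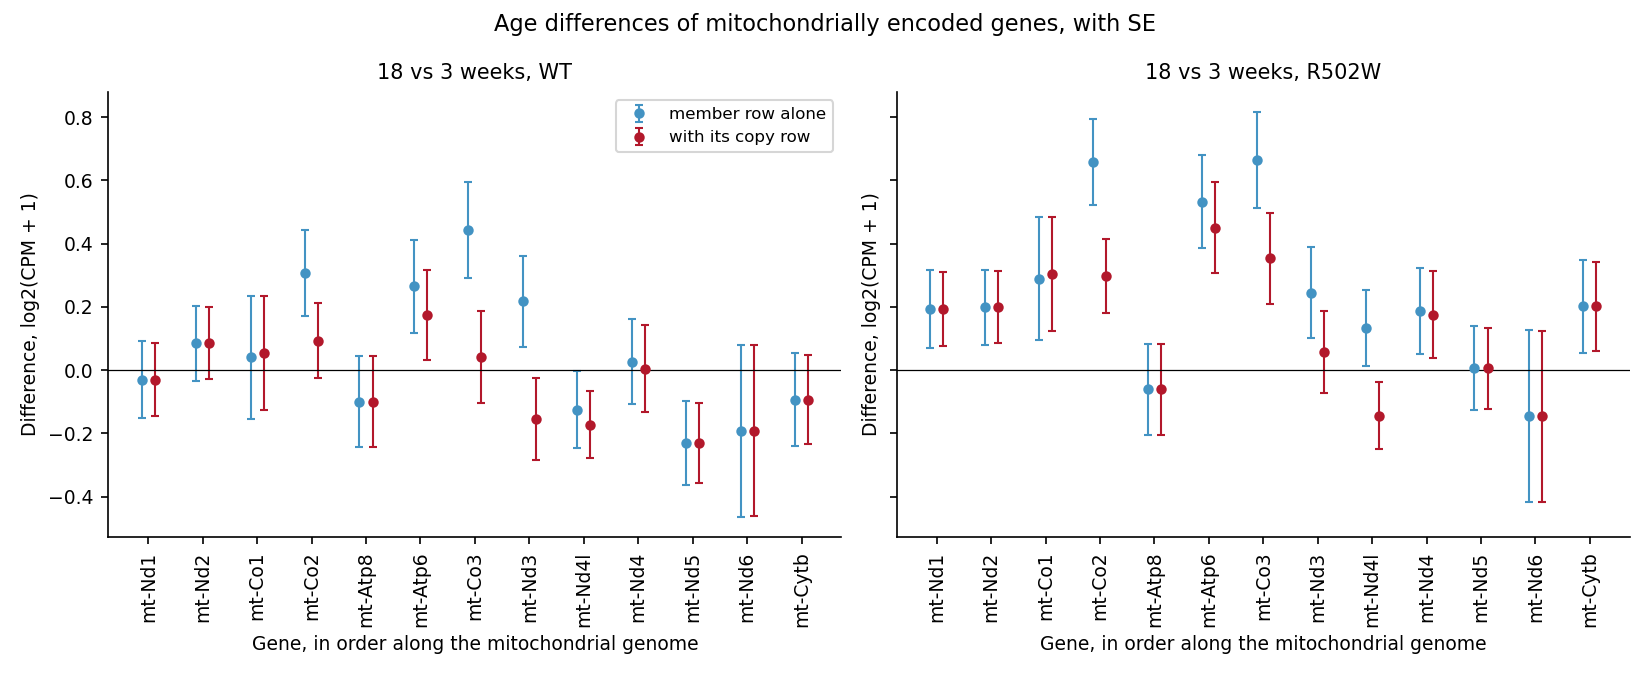
Age differences in log2(CPM + 1), with SE, of the 13 mitochondrially encoded genes in their order along the mitochondrial genome, in WT and in R502W, for the member row alone and with the reads of its near-identical copy row added. When the copy rows are added, the differences of mt-Co2 and mt-Co3 shrink, that of mt-Nd3 in WT turns from 0.22 to -0.15, and that of mt-Atp6 in R502W goes from 0.53 to 0.45.

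Nuclear and mitochondrial members were also set against each other within each library. Mitochondrially encoded reads with their copy rows exceeded nuclear member reads by a factor of 8.97 to 9.56 in WT and 8.30 to 10.3 in R502W at 3 weeks, and of 7.68 to 10.8 in WT and 10.002 to 11.6 in R502W at 18 weeks. The genotypes overlapped at both ages. The ages overlapped in WT, and in R502W as well (means of 9.42 ± 0.832 and 10.98 ± 0.683, SD, n = 4). The overlaps of R502W at 18 weeks, with WT of that age and with R502W at 3 weeks, rest on sample 4 (10.002). The other R502W libraries of 18 weeks were between 11.1 and 11.6, above every library of those groups. Without the copy rows the R502W ages were separate, at 6.14 to 7.52 and 7.60 to 8.38. The value of 7.68 belongs to WT 18 weeks sample 2, which was 1 of the 2 libraries apart in atrial markers, and the other WT libraries of that age were between 10.4 and 10.8.

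Genes that supply, build or regulate the chain were counted from lists. Of 16 measured fatty acid oxidation enzymes, 11 fell and 0 rose in R502W at 3 weeks (median -0.26), and 8 fell at 18 weeks (median -0.23). Of 30 electron carrier and cristae genes, 6 fell at 3 weeks and 3 at 18 weeks, among them Etfb, a subunit of the electron transfer flavoprotein that passes electrons from fatty acid oxidation to ubiquinone, at both ages (-0.39, limma adjusted p = 0.00134, and -0.31, limma adjusted p = 0.00380). In the tricarboxylic acid cycle 4 of 18 fell at each age. The mitochondrial ribosome had 4 falls of 79 at 3 weeks and 3 at 18 weeks, with medians of -0.07 and -0.04, shares near those of all genes (3.3% and 5.1% lower).

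Assembly factors, which help to build the complexes, were counted in the same way. Of 51 measured, 4 fell and 1 rose at 3 weeks, with a median of -0.06, and 3 fell and 1 rose at 18 weeks, with a median of -0.04. Of all genes, 3.3% were called lower and 3.13% higher at 3 weeks, and 5.1% and 5.6% at 18 weeks. The share of falls was above that of all genes at 3 weeks and near it at 18 weeks. The rise at both ages was that of Cox19, a copper-related assembly factor of complex IV (0.38, limma adjusted p = 0.00537, and 0.58, limma adjusted p = 5.6e-05). Tmem70, which helps to assemble the c-ring of ATP synthase, fell at both ages (-0.23, limma adjusted p = 0.0143, and -0.18, limma adjusted p = 0.0403). None of the 29 genes for copying, transcribing and processing mitochondrial DNA was called between genotypes, with medians of -0.03 at 3 weeks and -0.07 at 18 weeks.

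Of 17 nuclear regulators of respiration genes, 0 were called between genotypes at 3 weeks. At 18 weeks Ppargc1a, the coactivator PGC-1alpha, fell by 0.86 (SE 0.18, limma adjusted p = 0.00455) and Ppara, a nuclear receptor of fatty acid oxidation genes, by 0.75 (SE 0.11, limma adjusted p = 0.000241), while the corepressor Nrip1 rose by 0.26 (limma adjusted p = 0.0343). With age, where 15.8% of all genes were called higher in WT and 18.5% in R502W, 12 and 14 of the 16 fatty acid oxidation enzymes rose and 1 fell in each genotype. Of the 51 assembly factors 10 and 18 rose and 2 fell in each, the count of rises in WT being near the share of all genes. Of the 29 mitochondrial DNA expression genes 9 rose and 0 fell in each. Glycolysis genes, a list outside the mitochondrion, had 2 falls and 1 rise of 17 in R502W at 3 weeks and 2 of each at 18 weeks. Of all genes, 3.3% were called lower and 3.13% higher at 3 weeks, and 5.1% and 5.6% at 18 weeks. With age 8 glycolysis genes rose and 3 fell in WT, and 9 rose and 4 fell in R502W. The shares of all genes called lower with age were 14.4% in WT and 17.3% in R502W.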

How the data were processed

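Whole mouse hearts were profiled by strand-specific polyA RNA-seq, per the labels' protocols. The submitters' processing notes name cutadapt, FastQC, RSEM, limma and GRCm38, with versions not given in the sources used here. The deposited signal values are CPM on a library size scaled by the authors: each equals a whole read number plus 0.5, within 0.01 reads, divided by that size, for 100% of values. No gene filter was applied here.

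Differences were fitted with limma 3.58.1 (R 4.3.3) on log2(value + 1) over all 14109 genes and 16 libraries, with group means, a mean-variance trend, no block, two-sided tests and Benjamini-Hochberg adjustment over all genes at 0.05. Alternatives were a pseudocount of 0.1 or 5, rows with a mean of at least 1, quantile normalization, median-of-ratios scaling, scaling by nuclear genes, only the groups compared, edgeR 4.0.16 and DESeq2 1.42.0 on the recovered reads, a replicate block, each library left out in turn, and both libraries apart in atrial markers left out. On these reads edgeR called 50 members lower between genotypes at 3 weeks and 17 lower at 18 weeks. Copy rows of mitochondrially encoded genes were found with BLAST 2.17.0 (95% identity over 100 bases). The fits were tested on simulated data. Library pairs within a group differed by more than sampling noise (lowest chi-square over its degrees of freedom, 7.31).

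The rule for named members took every mitochondrially encoded gene, the isoform pairs, up to 3 called members per complex, comparison and direction with the smallest adjusted p, and the most abundant member of each complex. From the pathway lists it took up to 3 called genes per list and comparison, of which only some are given. Not every member that the rule takes is described for every comparison. A member that the rule takes is not reported here. Atp5a1, Cyc1, Ndufb3, Ndufb9, Uqcr10 and Uqcrfs1 lie outside it and were named after their values were seen. The members and lists were chosen with earlier results of these data known.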

Additional observations from a re-analysis of the deposited data

Results flagged for a closer look

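In groups of 4 libraries, a library was singled out when its gap to the nearest other library relative to the group's range passed Dixon's 95% criterion. This happened in 17 of 300 groups, where chance gives about 1 in 20.

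Among R502W libraries of 18 weeks, the lowest stood apart for mt-Nd1 (18274 CPM against 22579 to 23342), mt-Cytb (25755 against 31107 to 32035), mt-Nd6 (131 against 424 to 435), the sum of mitochondrially encoded members (207556 against 246002 to 249970) and that sum with its copy rows (273001 against 338607 to 345233). In the same group the lowest Sdha was 1107 against 1232 to 1242, and the highest Ndufa4l2 was 11.1 against 8.63 to 8.91.

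In WT at 3 weeks the highest library stood apart for mt-Nd4l (1091 against 947 to 971), Cox5b (406 against 361 to 368) and the mitochondrial sum with copy rows (329863 against 309200 to 311721), and the lowest for mt-Nd5 (20164 against 23719 to 24107) and Ndufa12 (121 against 135 to 136). In R502W at 3 weeks the highest Ndufb11 was 182 against 159 to 163. In WT at 18 weeks the highest library stood apart for Ndufb4c (102 against 77.4 to 80.0), Atp5e (213 against 170 to 176) and Atp5h (529 against 455 to 465). The lowest ratio of mitochondrial reads with copy rows to nuclear reads in that group was 7.68 against 10.4 to 10.8. The cause of these values was not tested.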

How the results depend on the processing

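Of 79 results for named members, 30 kept their call and direction in every alternative. Over all alternatives 1362 values were on the same side of the threshold, 216 were weaker and 2 reversed. Both reversals came from quantile normalization: Atp5b between genotypes at 3 weeks (0.0683) and Cox4i1 with age in R502W (-0.0627). Quantile normalization also gave a mitochondrial median of 0 between genotypes at 3 weeks, a nuclear median of -0.125 with age in WT, medians of -0.0865 (nuclear) and -0.0332 (mitochondrial) with age in R502W, in place of positive ones, 36 falls and 2 rises with age in WT, and 34 falls and 6 rises with age in R502W. Falls at 18 weeks numbered 7 with only the groups compared and 27 with DESeq2, and falls with age in R502W numbered 2 without both libraries apart in atrial markers. The cause was not tested.

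Leaving out 1 library gave 11 to 55 falls between genotypes at 3 weeks, 4 to 21 falls and 1 to 2 rises at 18 weeks, 9 to 24 falls and 2 to 6 rises with age in WT, and 2 to 11 falls and 13 to 19 rises with age in R502W. The rises at 18 weeks were 2 without R502W sample 4. The interaction called 0 members in every alternative.

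No pairing by sample number was seen. Correlations of same-numbered libraries lay between -0.16 and 0.13, and only number 4 between genotypes at 3 weeks correlated best with its own number. The labels do not say whether equal numbers pair libraries, and these correlations cannot exclude it. With the replicate block 39 members fell between genotypes at 3 weeks, 14 fell and 1 rose at 18 weeks, 13 fell and 5 rose with age in WT, and 9 fell and 16 rose with age in R502W. All nuclear members but 1 had reads in every library, and no call rests on a gene without reads.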

Other observations

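Ndufs5-ps, annotated as a processed pseudogene, varied from 0 reads to 8.89 CPM. It was at 2.00, 4.25, 0.113 and 0.0217 CPM in WT and 3.16, 1.92, 1.97 and 6.39 in R502W at 3 weeks, and at 5.99, 8.89, 0.117 and 4.11 against 1.12, 1.96, 5.08 and 3.12 at 18 weeks. The groups overlapped in every comparison.

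The c-ring of ATP synthase is encoded by 3 genes with an identical mature product. Atp5g1 over Atp5g3 was 0.520 to 0.545 in WT and 0.536 to 0.578 in R502W at 3 weeks, and 0.622 to 0.641 and 0.622 to 0.660 at 18 weeks. The ages did not overlap in either genotype, and the genotypes overlapped at each age.

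Exonic length was set against the genotype differences. Across the nuclear members, as a description over genes of the same libraries, Spearman's rho between length and the genotype difference was 0.15 at 3 weeks and 0.12 at 18 weeks. At 3 weeks the median difference was -0.24 for the 43 shorter and -0.22 for the 42 longer members, while it was -0.03 and 0.00 for shorter and longer genes that are not members.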
